A study of Mus musculus with 24 samples.

Results

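The potassium channel genes are the genes whose symbol begins with Kcn and a further lower-case letter, without antisense, pseudogene and Riken names. The rule found 95 entries under 94 symbols among the 38924 genes of the files, and it used no measured value. They fall into 21 families and were sorted by family into 31 voltage-gated pore subunits, 10 silent modifier subunits, 17 auxiliary subunits, 8 channels grouped as calcium- or sodium-activated, 15 inward rectifiers and 14 leak channels with tandem pore domains. Kcnu1 was put with the 8 by family, not because calcium or sodium opens it. Ribosome-associated RNA was measured in 24 spinal cords of mice aged 8 weeks, on a background of B6.Cg crossed to B6.129. All mice carried 1 allele of the epitope-tagged ribosomal protein Rpl22, the RiboTag, which Cre recombinase switches on, and ribosomes were pulled down with an antibody against the HA tag. Cre, where present, was heterozygous and came from Chat, the gene of choline acetyltransferase, so that all cholinergic cells and not motor neurons alone were tagged. The 4 groups of 6 mice were C201R with Cre, wild type with Cre, C201R without Cre and wild type without Cre. C201R mice were heterozygous for a mutation in Gars, the gene of glycyl-tRNA synthetase, and wild-type mice had no such allele. Pulldowns without Cre are the background of the method.

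Potassium channels let potassium leave the cell and so set the resting potential, end the action potential and limit repetitive firing. Voltage-gated channels open on depolarisation, inward rectifiers and tandem-pore leak channels hold the membrane near rest, and calcium- and sodium-activated channels follow activity. Motor neurons rely on fast delayed rectifiers, leak channels and M-type channels to set their firing, Shaker channels line the juxtaparanodes of their myelinated axons, and glial inward rectifiers take up the potassium that neurons release.

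Totals ranged from 8.9 to 28.29 M expected counts per library, of which the members took 0.0466% to 0.4296%. Libraries with Cre held the lists of cholinergic and motor neuron markers, 11 of 11 of which were higher with Cre over both genotypes (median log2 change 4.20), while 10 of 10 oligodendrocyte, 10 of 10 astrocyte and 9 of 9 tested microglia markers were lower. The predicted gene Gm26924 took 8.01% to 43.26% of counts in C201R with Cre (median 26.9%) and 7.45% to 30.8% in wild type with Cre (median 10.7%). Mitochondrial genes took 1.24% to 17.11% with Cre and 35.19% to 55.54% without. The highest shares with Cre were those of mice 14701-9 (wild type, 17.11%) and 14003-1 (C201R, 15.76%), and the other libraries with Cre lay at 1.24% to 6.45%. Library numbers in the labels form 2 runs, called series 1 (7 libraries) and series 2 (17 libraries), and the labels do not say what they stand for. C201R with Cre had 3 libraries in each series, and wild type with Cre had 2 in series 1 and 4 in series 2. Mice 14003-1 (C201R) and 14701-9 (wild type) stood apart from their groups in many members. Counts of called members are given with and without them, and most changes of single members only with them. Values are CPM, each count over the library total in M, scaled by TMM over all 24 libraries, and levels of different genes are compared as CPM per kilobase of effective length.

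The members highest per length on tagged ribosomes of wild-type mice included auxiliary, silent and pore subunits. Kcnab2, a cytoplasmic beta subunit of Shaker channels, stood at 68.4 ± 12.8 CPM per kilobase (SD, n = 6), the highest mean. Below it came the silent subunit Kcng4 (50.3 ± 16.3), the Shaker subunits Kcna2 (49.3 ± 15.0) and Kcna1 (47.8 ± 11.9), the inward rectifier Kcnj14 (45.2 ± 5.5), the calcium-binding Kcnip4 (40.5 ± 10.4), the leak channel Kcnk9 (35.6 ± 7.8) and the beta subunit Kcnab1 (32.6 ± 4.5). Among the 30 highest members, 2 of 29 neighbouring pairs differed by more than the larger of their SDs, among them Kcnip1 (25.1 ± 6.5) and Kcnd1 (13.3 ± 2.2). The order of other neighbours lies within their spread. In wild-type pulldowns without Cre the first rank went to Kcnj10, the main inward rectifier of astrocytes and oligodendrocytes, at 63.3 CPM per kilobase. With Cre the mean of Kcnj10 was 6.1 ± 2.7 and it ranked 24.

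**Figure D1:**
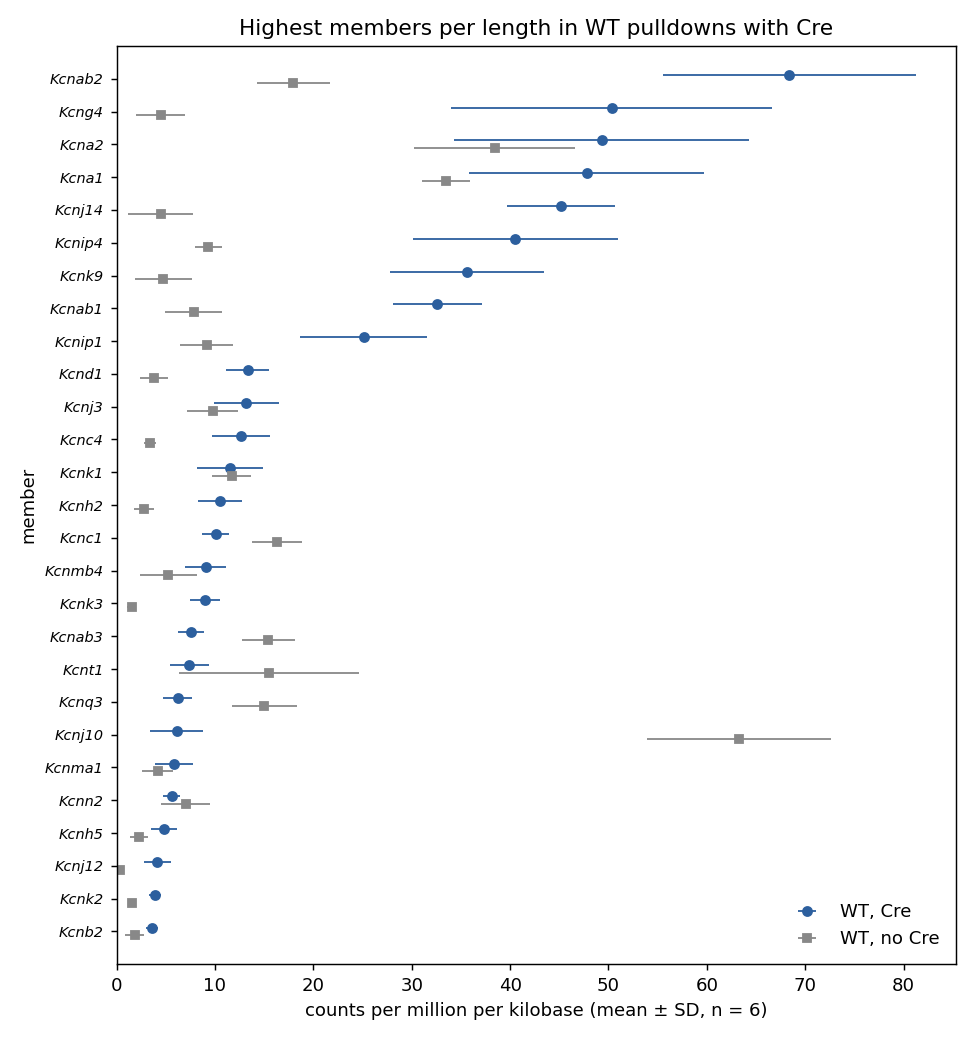
Levels of 27 of the 30 highest members in wild-type mice, as CPM per kilobase of effective length (horizontal axis, mean ± SD over 6 libraries), with Cre (circles) and without Cre (squares). Kcnab2 leads with Cre, and Kcnj10 is at 63.3 without Cre and 6.1 with it.

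The leading member of each family varied over a wide range per length in wild type with Cre. The large-conductance calcium-activated pore Kcnma1 stood at 5.84 CPM per kilobase and its beta subunit Kcnmb4 at 9.05, the small-conductance channel Kcnn2 at 5.60 and the sodium-activated Kcnt1 at 7.39. The ether-a-go-go family was led by Kcnh2 (10.53 ± 2.24). Silent subunits other than Kcng4 were low, with 2.65 for Kcns3, 0.378 for Kcnv1 and 0.134 for Kcnf1. Kcne1l, of the single-span beta subunits, stood at 0.747, Kcnu1 at 0.772 and Kcnrg, a soluble regulator related to channel tetramerisation domains, at 0.194. Of the 95 entries, 21 were too low to be tested in any comparison, among them the cardiac and epithelial channel Kcnq1, the retinal and brain channel subunits Kcnv2 and Kcnh3 and 5 tandem-pore members.

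Comparing pulldowns with and without Cre asks which channel transcripts sit on tagged ribosomes above background. Over both genotypes 73 members were tested with edgeR's quasi-likelihood test (Benjamini-Hochberg adjusted p under 0.05), of which 21 were higher with Cre and 26 lower, against 33.4% and 37.4% of the 16109 genes tested. The members' median log2 change was -0.07 and that of all genes was -0.11. The inward rectifier Kcnj14, the silent subunit Kcng4 and the leak channels Kcnk3 and Kcnk9 were among the highest, and the glial inward rectifiers Kcnj10 and Kcnj16 among the lowest. These are pulldowns from whole tissue, so fewer cells of a type and less RNA per cell cannot be told apart. Scaling by library totals in place of TMM raises the median of all genes to 0.55 and turns the split of members to 36 higher and 16 lower, so the directions below are relative to the bulk of genes.

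The largest rise was in Kcnj14, an inward rectifier known from cranial and spinal motor nuclei. It stood at 3.39 to 8.45 CPM in C201R and 3.53 to 26.9 in wild type without Cre, and at 31.0 to 116 and 87.0 to 123.5 with Cre. The ranges with and without Cre did not overlap, and the change was 3.65 ± 0.28 on the log2 scale (SE, adjusted p = 1.72e-11). Kcng4, which forms no channel alone and modifies Kcnb pores, rose by 3.37 ± 0.22, from at most 32.3 CPM without Cre to between 29.9 and 184 in C201R and between 64.8 and 222 in wild type with it. The inward rectifier Kcnj12 rose by 2.74 ± 0.46 from levels of at most 4.52 CPM without Cre. It was too low there for the genotype test, so it passed the count filter through libraries with Cre.

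The acid-sensitive leak channels Kcnk3 and Kcnk9, which set the resting potential of motor neurons, rose together. Kcnk3 ran from 3.57 to 7.15 CPM over both groups without Cre and from 20.5 to 41.1 with Cre, with no overlap, a change of 2.65 ± 0.16 (adjusted p = 4.13e-14). Kcnk9 rose by 2.58 ± 0.25, with a median of 37.7 CPM in wild type and 21.3 in C201R with Cre against 4.32 and 4.79 without. Kcnk2 also rose (1.02 ± 0.19), and with the low Kcnk4 and Kcnk12 the tandem-pore family had 5 members higher and 2 lower of 9 tested. Kcnk4 and Kcnk12 passed the count filter only through libraries with Cre, and Kcnk6, among the lower ones, only through those without. Their directions follow from that filter, so these family counts are a description. Of all genes 33.4% were higher and 37.4% lower.

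Auxiliary subunits moved in both directions. Kcnab2 rose by 1.88 ± 0.13 and Kcnab1 by 1.86 ± 0.16, while the third beta subunit, Kcnab3, fell by 0.83 ± 0.14 on the log2 scale. Kcnip4 (2.16 ± 0.23) and Kcnip1 (1.39 ± 0.18), calcium sensors of Kcnd channels, rose, and Kcnip3, which also acts as a transcriptional repressor, fell by 2.50 ± 0.25. Of the pores, Kcnc4 rose by 1.72 ± 0.22, Kcnh2 by 1.89 ± 0.18 and Kcnd1 by 1.31 ± 0.18. Kcng1 rose by 2.06 ± 0.37.

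Members lower with Cre included glial and vascular channels and also neuronal ones. Kcnj10 ran from 277 to 423 CPM without Cre and from 18.7 to 58.9 with Cre, a fall of 3.50 ± 0.15 on the log2 scale (adjusted p = 8.65e-17). Its partner subunit Kcnj16 fell by 3.44 ± 0.22, and Kcnj13, a channel of ion-transporting epithelia such as the choroid plexus, fell by 3.52 ± 0.54 from levels of at most 6.04 CPM. Kcnmb1, the beta subunit of smooth muscle, fell by 3.09 ± 0.59, the microglial leak channel Kcnk13 by 2.37 ± 0.54 and Kcnk6 by 2.28 ± 0.55. Kcnj13 and Kcnk6 were too low with Cre for the genotype test there, so they passed the count filter through libraries without Cre. In Kcnj15 (-2.41 ± 1.06) the highest values with Cre, 15.7 CPM in mouse 14003-1 (C201R) and 11.05 in mouse 14701-9 (wild type), stood far above the others. Without both mice its change was -3.29 (edgeR adjusted p = 0.000641), it was called in 9 of 24 fits that left out 1 library, and without the series term it was -0.67 (edgeR adjusted p = 0.556). Among voltage-gated pores, Kcnh7 fell by 2.08 ± 0.14, Kcnh8 by 2.02 ± 0.57 and the A-type subunit Kcna4 by 1.71 ± 0.27. The markers of other spinal neurons were lower as well, 7 of 8 tested, with a median log2 change of -1.49, and their part in these values was not tested.

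Of the 17 members in the list of motor neuron channels 6 were higher with Cre, among them Kcnk3, Kcnk9, Kcnab2 and Kcnc4, and 5 lower. These counts are near the shares of all genes (33.4% higher and 37.4% lower), and the list's median log2 change was 0.12. The lower ones included the M-type channels Kcnq3 (-1.36 ± 0.16) and Kcnq5 (-1.74 ± 0.38), the delayed rectifier Kcnc1 (-1.13 ± 0.16) and the sodium-activated Kcnt1 (-1.35 ± 0.22). Library totals as scaling raise Kcnc1 to 0.14 in wild type. The other 6 did not pass the test, with log2 changes of 0.08 ± 0.14 for Kcna1, 0.28 ± 0.13 for Kcna2, 0.12 ± 0.23 for Kcnma1, -0.33 ± 0.20 for Kcnn2, 0.70 ± 0.36 for Kcnn3 and -0.39 ± 0.25 for Kcnt2. Of the 9 tested glial and vascular channels 5 were lower and 0 higher, with a median of -2.28 (all genes -0.11). The lower ones include Kcnk6, which passed the count filter only through libraries without Cre. The 4 that did not pass were Kcnk1 (-0.07 ± 0.16), Kcnj2 (-0.16 ± 0.18), Kcnj8 (-1.11 ± 0.86) and Kcna3 (1.12 ± 0.78), and Kcnn4 was too low to test. Summed over its 10 genes this list stood at 366 to 529 CPM without Cre and 65.2 to 96.1 with Cre.

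**Figure D2:**
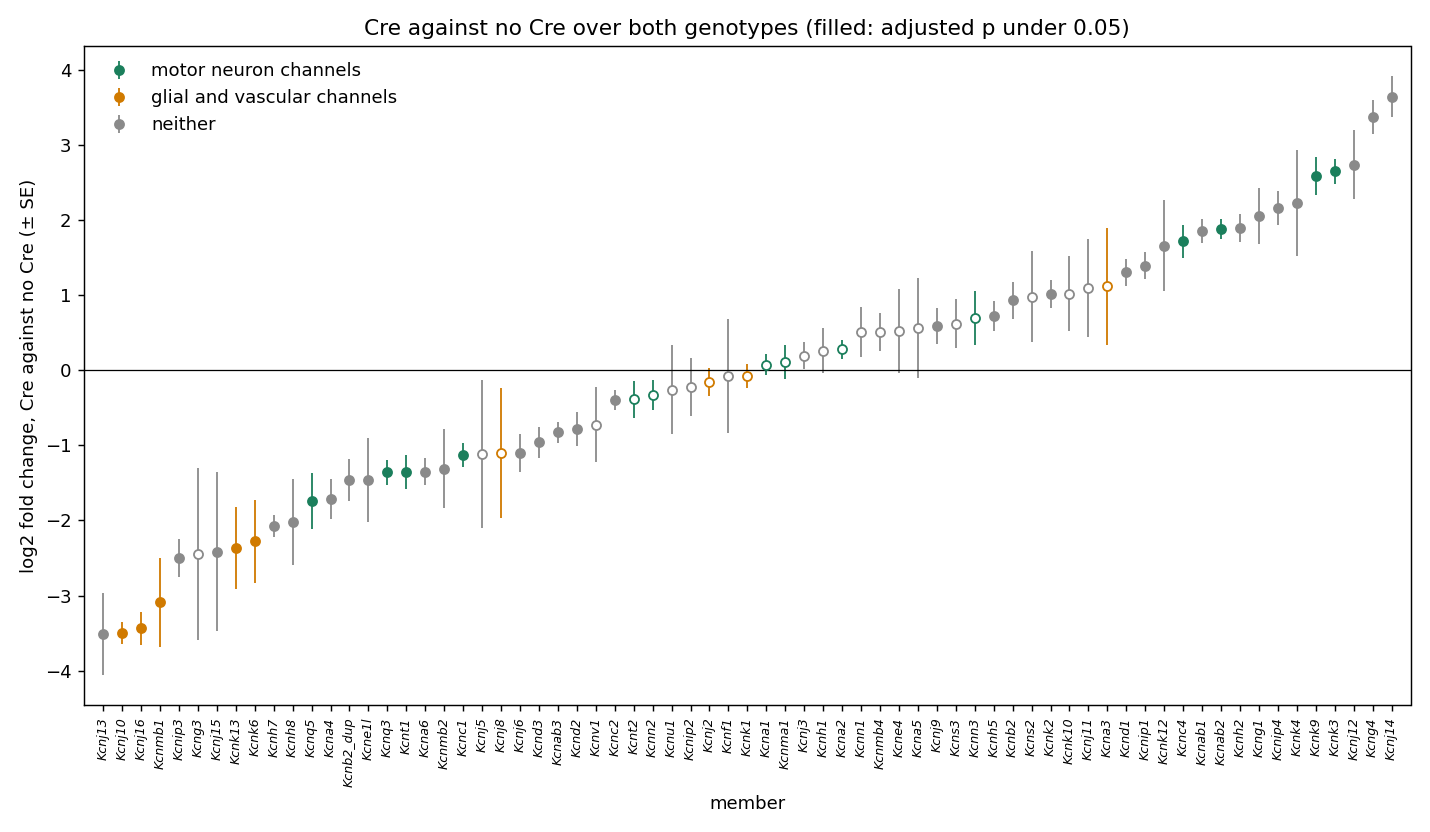
Log2 fold change of pulldowns with Cre against those without, over both genotypes, for 69 of the 73 tested members (vertical axis, ± SE; horizontal axis, members in order of change), coloured by list, with filled points for an adjusted p under 0.05. Motor neuron channels lie on both sides of 0, whereas the filled glial and vascular channels all lie below it.

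Within wild type, 64 members were tested, 19 were higher with Cre (27.7% of all genes) and 21 lower (32.8%). Within C201R, 62 were tested, 15 were higher (30.5% of all genes) and 20 lower (26.3%). Between these comparisons, which share no library, 59 members were tested in both. Of these 13 (22%) were higher in both, 17 (28.8%) were lower in both and 0 had opposite calls, against 24.5%, 23.8% and 0.101% of the 13820 genes tested in both. Called higher in wild type alone were 6 members (10.2%, 3.94% of all genes), and in C201R alone 2 (3.39%, 7.03% of all genes). Kcna1 was among the 6 at 0.38 ± 0.16, a call it kept without mouse 14701-9, 14701-1 or 14702-6 and lost without any 1 of the other 9. Its difference between the genotypes is taken up by the interaction below. Without mice 14003-1 and 14701-9, 25 members were higher (34.4% of all genes) and 28 lower (40.0%) over both genotypes, 25 (29.4%) and 21 (34.8%) in wild type, and 17 (30.4%) and 23 (32.3%) in C201R.

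The comparison of C201R with wild type among pulldowns with Cre asks whether the Gars mutation changes the channel transcripts on ribosomes of cholinergic cells. Of 70 tested members, 8 were lower in C201R and 0 higher by edgeR's quasi-likelihood test, against 1.82% lower and 2.29% higher among 14634 genes. Among the 8 were the pore subunits Kcna1, Kcnd1, Kcnh5 and Kcnq5, the silent subunit Kcng1 and the auxiliary subunits Kcnab1 and Kcnip1. The median log2 change was -0.32 over the members and -0.01 over all genes, and 48 of 70 members (68.6%) were below 0 against 50.5% of all genes. At an unadjusted p under 0.05 there were 20 members (28.6%) and 2687 of all genes (18.4%).

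Kcnq5, a subunit of the M-type channels that restrain repetitive firing, was lower in C201R with Cre. It was also lower with Cre than without over both genotypes. In wild type it had a mean of 2.99 CPM per kilobase with Cre and 9.68 without. The part of background RNA in its values with Cre was not tested. Kcnq5 stood at 3.42 to 7.53 CPM in C201R and 8.18 to 15.5 in wild type, with no overlap, a change of -0.98 ± 0.20 (edgeR adjusted p = 0.0152). Kcnq3, of the same family, had a change of -0.35 ± 0.25 that did not pass the test.

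Of the Shaker channels and their beta subunits, 1 of 6 tested Kcna members (family median log2 change 0.23) and 1 of 3 Kcnab members (-0.33) were lower. Of all genes 1.82% were lower. Kcnab1 ran from 48.3 to 64.4 CPM in C201R (median 62.0) and from 76.5 to 110 in wild type (median 92.9). No C201R library reached the lowest wild-type library, and the change was -0.60 ± 0.12 (edgeR adjusted p = 0.0106). Kcna1 ran from 106 to 353 CPM in C201R (median 247) and from 229 to 499 in wild type (median 466), with overlap at mouse 14701-9, a change of -0.77 ± 0.18 (edgeR adjusted p = 0.0263). Kcna2, which assembles with Kcna1 in axons, and Kcnab2 did not pass, at -0.50 ± 0.17 and -0.33 ± 0.12.

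A further 4 called members belong to other families. Kcnd1, an A-type pore, ran from 17.9 to 47.9 CPM in C201R and 44.2 to 68.6 in wild type (-0.78 ± 0.19), and its calcium sensor Kcnip1 from 11.1 to 37.7 and 24.6 to 60.1 (-0.83 ± 0.21). Kcng1, a silent partner of Kcnb pores, had the largest change of the 8 at -1.38 ± 0.34, from 3.52 to 13.8 CPM in wild type to 0.923 to 6.96 in C201R. Kcnh5, of the ether-a-go-go family, ran from 9.38 to 11.9 CPM in C201R and from 10.4 to 26.4 in wild type (-0.76 ± 0.19). Their edgeR adjusted p-values lay between 0.0343 and 0.0403. In all 4 the groups overlap, and in Kcng1, Kcnip1 and Kcnh5 the wild-type library within the C201R range was that of mouse 14701-9.

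**Figure D3:**
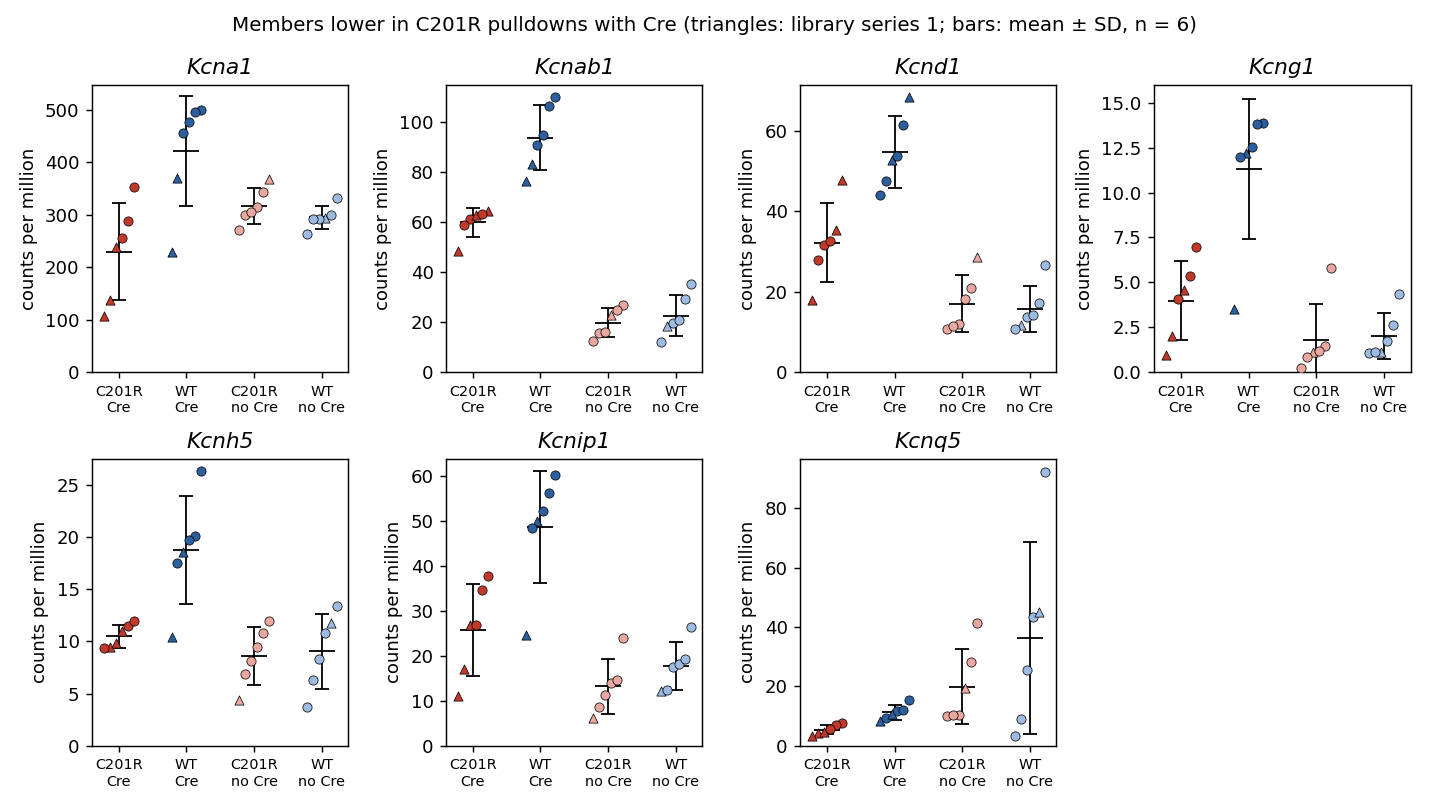
CPM (vertical axes, from 0) of 7 members lower in C201R with Cre, in each of the 24 libraries by group, with mean ± SD (n = 6) and triangles for library series 1. In Kcnab1 and Kcnq5 the C201R and wild-type libraries with Cre do not overlap, and in Kcnq5 the libraries without Cre spread from 3.18 to 92.2.

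Promoter sequence is shown for the 2 of the 8 lower members whose RefSeq promoter (GRCm38.p6, 250 bases before to 50 after the first listed start) holds the GC box GGGCGG, with its matches on either strand in capitals. The promoter table held 69 of the 94 member symbols and 4 of the 8 lower ones. Of the other 2, those of Kcnip1 and Kcnq5, neither holds a GC box in this window. The Kcnab1 promoter lies at chr3:64948962-64949261 on the plus strand and the Kcnh5 promoter at chr12:75177283-75177582 on the minus strand.
Kcnab1: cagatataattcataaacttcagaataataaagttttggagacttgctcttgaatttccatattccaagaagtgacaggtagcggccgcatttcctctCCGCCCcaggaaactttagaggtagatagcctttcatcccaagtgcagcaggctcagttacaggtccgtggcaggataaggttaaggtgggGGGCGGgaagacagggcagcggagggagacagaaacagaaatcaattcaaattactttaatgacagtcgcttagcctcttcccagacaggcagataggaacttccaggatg
Kcnh5: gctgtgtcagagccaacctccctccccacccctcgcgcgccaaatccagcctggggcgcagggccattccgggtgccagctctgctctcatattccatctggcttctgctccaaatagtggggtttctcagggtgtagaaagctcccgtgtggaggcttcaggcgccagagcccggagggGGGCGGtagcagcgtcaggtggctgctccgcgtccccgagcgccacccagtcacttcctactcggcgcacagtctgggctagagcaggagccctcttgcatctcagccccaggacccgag
GGGCGG occurred in 36 of 69 member promoters (52.2%) and in 35.9% of all 27025, and the median GC content was 58.3% in members' and 52.7% in all promoters. The other motifs searched on both strands occurred in none of the 4 promoters of lower members. These were TGACGTCA (1.9% of all promoters), CACGTG (7.2%), TATAAA (14.2%) and TTCAGCACC (0.4%). A match is a description of these letters alone.

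By kind of channel, 5 of 25 tested voltage-gated pores, 2 of 12 auxiliary subunits and 1 of 6 silent subunits were lower in C201R with Cre, where 1.82% of all genes were lower. Of 12 inward rectifiers, 8 tandem-pore channels and 7 calcium- or sodium-activated channels 0 were called, which is near the share of all genes. Of these 8, 6 and 6 had changes below 0. The leak channel Kcnk9 was just outside the threshold, at -0.78 ± 0.21 (edgeR adjusted p = 0.0506), with 14.8 to 31.4 CPM in C201R and 24.5 to 48.8 in wild type. Also close were Kcnj2 (-0.62 ± 0.17, adjusted p = 0.059) and Kcnj3 (-0.74 ± 0.22, adjusted p = 0.0787). Some members that mark tagged ribosomes had changes near 0, among them Kcnk3 (-0.05 ± 0.17), Kcnh2 (0.00 ± 0.14) and Kcnip4 (0.03 ± 0.24).

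In the motor neuron list 3 of 17 members were lower, Kcna1 and Kcnq5 among them, with a median log2 change of -0.50. Of all genes 1.82% were lower, with a median of -0.01. The other 14 did not pass the test. Among them Kcnt1 had -0.59 ± 0.25, Kcnc4 -0.58 ± 0.31, Kcnma1 -0.46 ± 0.26, Kcnc1 -0.27 ± 0.16, Kcnn3 -0.22 ± 0.52, Kcnn2 -0.05 ± 0.29 and Kcnt2 0.27 ± 0.28. In the glial and vascular list 0 of 8 tested members were called, which is near the share of all genes, with a median of 0.11. Kcnj10 (-0.07 ± 0.20), Kcnj16 (0.27 ± 0.30) and Kcnk1 (-0.06 ± 0.21) differed by less than their SE, while Kcnj2 (-0.62 ± 0.17) was close to the threshold with edgeR and lower by DESeq2. The list's summed level was 66.1 to 77.4 CPM in C201R and 65.2 to 96.1 in wild type. Kcnk13 (0.56 ± 0.80), Kcna3 (0.78 ± 0.75), Kcnj8 (-0.81 ± 1.02) and Kcnmb1 (1.47 ± 0.97) had wide errors. In Kcnmb1 mouse 14003-1 stood at 11.4 CPM, the other C201R libraries with Cre at 0.116 to 1.47 and wild type at 0 to 1.62. In Kcnn2 the same mouse stood at 19.9 CPM and the others of its group at 5.8 to 10.8. The changes of Kcnmb1 and Kcnn2 include this mouse.

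**Figure D4:**
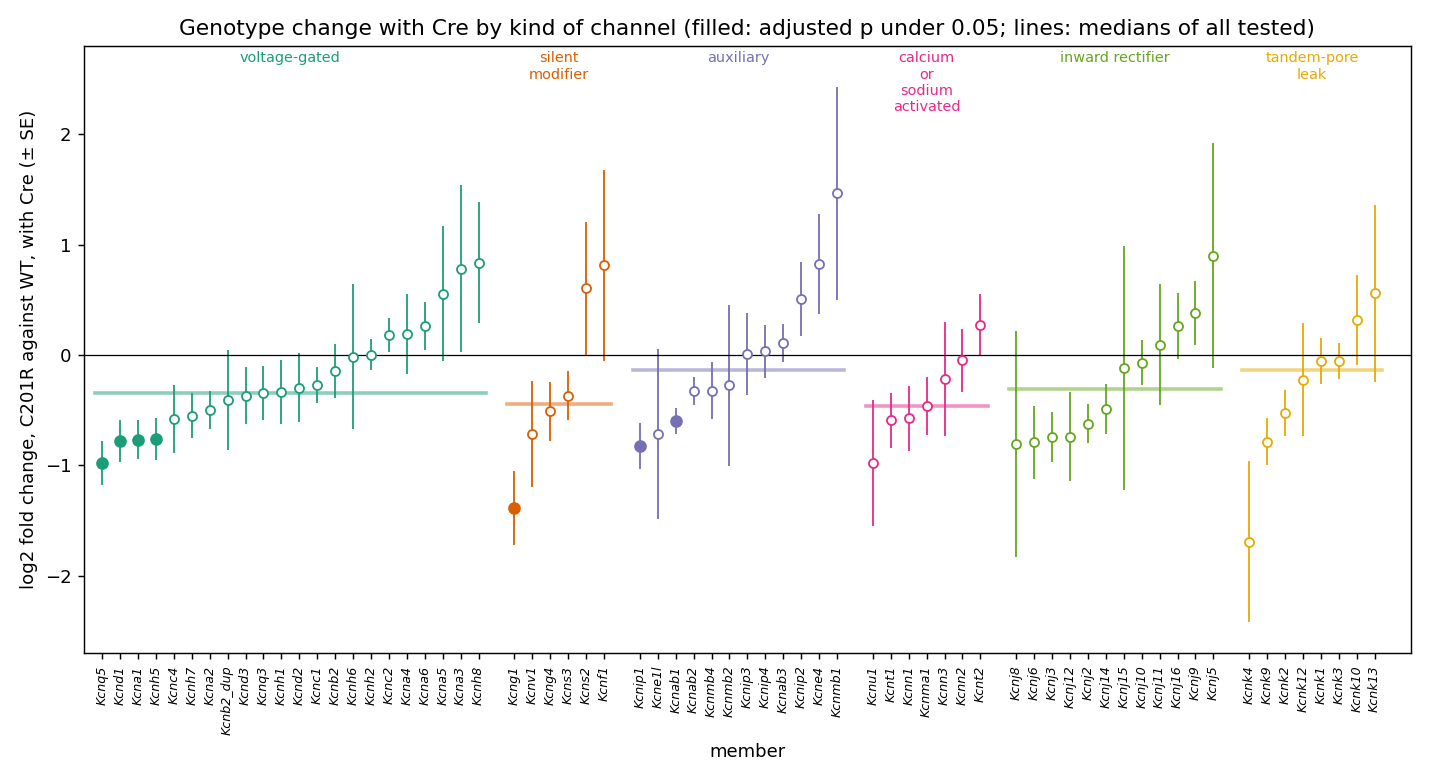
Log2 fold change of C201R against wild type among pulldowns with Cre for 67 of the 70 tested members (vertical axis, ± SE; horizontal axis, members by kind), with filled points for an adjusted p under 0.05 and a line at the median of each kind over all tested members. The 7 filled points are voltage-gated, silent or auxiliary subunits, and all lie below 0.

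Of the 8 lower members, 5 were higher with Cre over both genotypes, 2 were lower with Cre, Kcnq5 among them, and Kcna1 was not called. Of the 70 members tested for genotype, 21 were higher with Cre and 23 lower. Of all 16109 genes in the Cre test 33.4% were higher with Cre and 37.4% lower. How many of the 266 genes lower in C201R were higher with Cre was not counted, so 5 of 8 has no matching share. The Cre and genotype comparisons share the libraries with Cre, so these counts are a description.

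The level of the members moved with library composition. Summed over all members, C201R libraries with Cre held 1042 (mouse 14003-1), 1326 (14003-4), 1635 (14701-5), 1705 (14703-4), 2011 (14004-5) and 2064 CPM (14004-2). Wild-type libraries with Cre held 1552 (14701-9), 2308 (14002-6) and 2650 to 2760 CPM in the other 4. The 3 lowest C201R libraries and both lowest wild-type libraries were those of series 1, and the 4 lowest of all had Gm26924 shares from 30.8% to 43.26%. Within series 2 the groups did not overlap in the sum. With the Gm26924 share as a covariate 0 members were called, where 33 of all 14634 genes were lower. Changes among the 8 then ran from -0.93 ± 0.24 for Kcnq5 to -0.43 ± 0.20 for Kcnip1. The part of the Gm26924 share in the result was not tested.

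**Figure D5:**
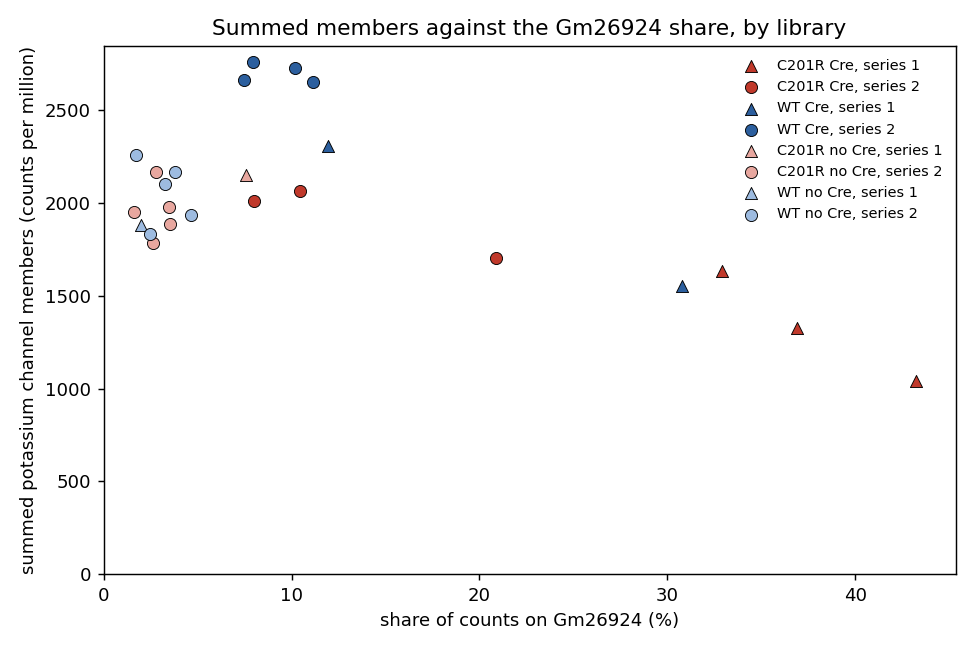
Summed CPM of all members (vertical axis, from 0) against the percentage of counts on Gm26924 (horizontal axis) in the 24 libraries, with triangles for library series 1. The 4 libraries with Cre above 30% on the horizontal axis hold 1042 to 1635 CPM, and the 4 wild-type libraries of series 2 with Cre hold 2650 to 2760.

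Within series 2, with 3 C201R and 4 wild-type libraries, 18 of 74 tested members were lower (5.38% of all genes), all 8 among them, at -0.86 ± 0.20 for Kcnq5 and -0.71 ± 0.11 for Kcnab1. Within series 1, with 3 and 2 libraries, 0 members were called (0.0% of all genes), and the changes of these genes were -1.13 ± 0.59 and -0.41 ± 0.31. Without mice 14003-1 and 14701-9, 19 of 68 were lower (6.79% of all genes), again with all 8. The others included Kcna2, Kcnab2, Kcnc4, Kcng4, Kcnj12, Kcnj2, Kcnj3, Kcnk9 (-1.01 ± 0.16) and Kcnt1. DESeq2 called 12 (4.22% of all genes), the 8 and, among others, Kcnj2, Kcnj3 and Kcnk9.

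Other settings gave fewer calls. Leaving out mouse 14703-4 left 0 lower members, 14004-3 left 2, each of 14002-6, 14004-6, 14702-3 and 14703-5 left 3, each of 14004-2 and 14004-5 left 4 and 14003-4 left 5. Leaving out 14003-1 or 14701-9 gave 11. How many of all genes were lower in these fits was not recorded. Kcnab1 kept its call in 11 of 12 such fits, Kcnq5 in 10, and Kcna1, Kcnd1, Kcng1, Kcnh5 and Kcnip1 in 3 or 4. With the prefix of the mouse numbers as a block 0 members were called, where 15 of all 14634 genes were lower. Library totals also gave 0 members, and there all genes shift to a median of -0.26. On library totals 24 genes of all were higher and 8 lower, against 335 and 266 with TMM.

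Length differed too. Tested members had a median effective length of 3339 bases against 2361 for all genes, and over all genes the median genotype change fell from 0.23 in the shortest of 5 equal bins of length to -0.18 in the longest. With that trend removed in each library 6 members were lower (1.36% of all genes), among them Kcnab1 (-0.52 ± 0.11), Kcng1, Kcnip1 and Kcnq5 (-0.85 ± 0.19) of the 8, and Kcnk9 (-0.91 ± 0.21). Kcna1 (-0.50 ± 0.14, adjusted p = 0.0788), Kcnd1 and Kcnh5 no longer passed.

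Without Cre, the same genotype comparison called 0 of 61 tested members by edgeR and 0 by DESeq2, and edgeR called 0.0% of all 14400 genes. At an unadjusted p under 0.05 there were 2 members (3.28%) and 455 of all genes (3.16%). Kcnab1 had a change of -0.18 ± 0.27. Kcna1 ran from 270 to 368 CPM in C201R and 264 to 331 in wild type without Cre (0.10 ± 0.14). Kcnq5 was widely spread without Cre, from 3.18 to 92.2 CPM in wild type and 10.0 to 41.3 in C201R. The interaction, which tests whether the genotype change differs with Cre, called 0 of 73 members by edgeR and by DESeq2 (0.13% of all genes by edgeR), with 6 members (8.22%) at an unadjusted p under 0.05 against 9.08% of all genes. The change of Kcna1 in it was -0.94 ± 0.27 (edgeR adjusted p = 0.227), that of Kcnab1 -0.44 ± 0.30 and that of Kcnq5 -0.13 ± 0.72. A genotype change with Cre that differs from that without it was therefore not shown for any member.

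Genes that work with the channels were taken from fixed lists. In C201R against wild type with Cre, 1.82% of all genes were lower and 2.29% higher. Of 24 tested channel partners 3 were lower in C201R with Cre and 0 higher: Adam23 (-0.83 ± 0.17), which binds the secreted protein Lgi1 near Shaker channels, and the ankyrins Ank3 (-0.55 ± 0.14) and Ank2 (-0.47 ± 0.12), which anchor membrane proteins. The partners of the Shaker complex at juxtaparanodes, Cntnap2 (-0.16 ± 0.18) and Cntn2 (0.14 ± 0.14), did not pass, nor did the Kcnd partners Dpp6 (-0.14 ± 0.14) and Dpp10 (-0.81 ± 0.24). Of 17 related cation channels and potassium transporters 0 were called, which is near the share of all genes. Among markers, 4 of 11 of the cholinergic and motor neuron list were lower in C201R (Chodl, Calcb, Calca and Ahnak2) and 0 higher, with a median log2 change of -0.07. Chat (0.24 ± 0.17), Mnx1 (0.52 ± 0.20) and Prph (0.17 ± 0.10) did not pass the test, nor did Ret, Slc10a4, Slc5a7 and Isl1. With Cre, Ret ran from 60.5 to 195 CPM in C201R and from 109 to 251 in wild type. In the same order Slc10a4 ran from 109 to 207 and 91.9 to 200, and Slc5a7 from 202 to 598 and 177 to 595. Isl1 ran from 4.61 to 13.9 and 6.8 to 11.1. The list summed to 1330 to 2130 CPM in C201R and 1690 to 3000 in wild type, and the part of the marker levels in the channel values was not tested. Of the glial lists 0 oligodendrocyte markers and 1 astrocyte marker were called, Aldoc, which was higher. Gars itself was at 144 to 205 CPM in C201R and 80.3 to 106 in wild type with Cre.

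Some members' values are uncertain. Kcnb2 appears under 2 identifiers, of which the second is absent from the reference, and their changes with Cre had opposite signs (0.93 ± 0.25 and -1.46 ± 0.28). How RSEM divided the reads of this delayed rectifier between them was not tested. In the GENCODE M21 annotation exons of Kcna6 overlap 2355 bases of Gm26673 on the opposite strand, those of Kcnj3 1621 bases of Gm26794, those of Kcnh7 696 bases of Gca and those of Kcnq5 237 bases of Gm26580. Whether counting used strand is not given in the sources used here, and the reads of such pairs cannot be told apart without it.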

How the data were processed

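RNA from anti-HA pulldowns of 24 spinal cords was sequenced. The deposited files hold expected counts per gene, which the authors estimated with RSEM 1.2.12 and Bowtie2 2.2.0, per the submitters' processing notes; genome build and annotation are not given in the sources used here. The effective lengths in the deposited files gave levels per length. Of the gene identifiers 37607 matched GENCODE M21. Expected counts were rounded and tested with edgeR 4.0.16 (R 4.3.3; filterByExpr, TMM, robust quasi-likelihood F test, library series as a term, Benjamini-Hochberg over all genes, threshold 0.05), each comparison of a pair of groups on its own 12 libraries, the pooled Cre effect and the interaction on all 24. SE was taken as the size of the log2 fold change over the root of its F value. DESeq2 1.42.0, other scalings, covariates and subsets were alternatives. The labels do not state the sex of the mice, so an alternative fit took Xist as a covariate.

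Members, lists and tests were chosen with earlier results of these data known. Members are named if they were called in the genotype comparison with Cre or the interaction, belong to the motor neuron or glial and vascular list, were among the 12 highest or 12 lowest called with Cre at a mean of at least 1 CPM, or led their family per length in wild type with Cre. Members outside this rule, such as Kcnab3, Kcnb2, Kcnj3, Kcnk2 and the members too low to test, were named after their values were seen. The list of channel partners lacks Epb41l3 and the cholinergic list Slc18a3, which are not analysed here. Some members that the rule would name are not reported here, though counts over the members include them.

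Tested on simulated data of 14414 genes, the genotype comparison with Cre recovered 17.2% of 2-fold and 63.5% of 4-fold changes, with 4.9% of calls wrong. For the pooled Cre effect (15714 genes) the shares were 49% and 75.8%, with 1.6% wrong, and for the interaction (15696 genes) 3.1% and 30.5%, with 8.6% wrong. Whether these shares hold for the measured libraries, or for the members called in them, was not tested. No libraries of a group agreed within sampling noise. The samples are separate mice, and the precision of low members is limited by counts, since members took at most 0.4296% of a library.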

Additional observations from a re-analysis of the deposited data

Results flagged for a closer look

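Single libraries stood far from the other 5 of their group in 30 of 164 sets of values tested with Dixon's gap test (95% level), spread over 11 mice. The test was run on named members with a group mean of at least 1 CPM and on 2 measures per group summed over the members. Chance alone flags about 1 in 20 sets, and values of 1 library are not independent. In some sets a single high library alone lifted the group mean to 1 CPM, such as Kcnf1 and Kcnj15 in C201R with Cre. The filter thus favours sets with a high outlier, and the number flagged cannot be set against that share. Mouse 14003-1, C201R with Cre, was the highest of its group in Kcnf1 at 4.98 CPM (others 0.0434 to 1.28), Kcnj15 at 15.7 CPM (others 0.171 to 0.522), Kcnmb1 at 11.4 CPM (others 0.116 to 1.47) and Kcnn2 at 19.9 CPM (others 5.8 to 10.8). Mouse 14003-1, C201R with Cre, was the lowest of its group in Kcnab1 at 48.3 CPM (others 58.9 to 64.4). Mouse 14004-5, C201R with Cre, was the highest of its group in Kcns3 at 8.1 CPM (others 4.21 to 5.54). Mouse 14003-2, C201R without Cre, was the highest of its group in Kcnc1 at 202 CPM (others 63.9 to 98.1). Mouse 14003-3, C201R without Cre, was the highest of its group in Kcnc4 at 14.1 CPM (others 5.77 to 8.58). Mouse 14004-7, C201R without Cre, was the highest of its group in Kcng1 at 5.79 CPM (others 0.218 to 1.44). Mouse 14004-8, C201R without Cre, was the highest of its group in Kcnj12 at 4.52 CPM (others 0.327 to 1.61). Mouse 14701-9, wild type with Cre, was the highest of its group in Kcnj10 at 58.9 CPM (others 18.7 to 31), Kcnj15 at 11 CPM (others 0.0578 to 1.1) and Kcnj16 at 9.14 CPM (others 2.63 to 4.67). Mouse 14701-9, wild type with Cre, was the lowest of its group in Kcnab2 at 102 CPM (others 162 to 184), Kcng1 at 3.52 CPM (others 12 to 13.8), Kcng4 at 64.8 CPM (others 175 to 222) and Kcnip1 at 24.6 CPM (others 48.5 to 60.1). The same library was also lowest in Kcnip4 at 32.8 CPM (others 71.5 to 78.9), Kcnk1 at 10.9 CPM (others 23.9 to 30.6), Kcnma1 at 8.57 CPM (others 24.8 to 32) and the members together at 1550 CPM (others 2310 to 2760). The same library was also lowest in the share of counts on members at 0.121% of counts (others 0.354 to 0.43). Mouse 14702-4, wild type without Cre, was the highest of its group in Kcna4 at 20.4 CPM (others 6.28 to 11.5) and Kcnu1 at 5.32 CPM (others 0 to 1.46). Mouse 14702-6, wild type without Cre, was the highest of its group in Kcnj14 at 26.9 CPM (others 3.53 to 12.2) and Kcnk9 at 11 CPM (others 2.74 to 4.95). Mouse 14702-5, wild type without Cre, was the highest of its group in Kcnj15 at 13.3 CPM (others 0.567 to 4.7), Kcnmb4 at 8.16 CPM (others 2.23 to 4.38) and Kcnn2 at 21.4 CPM (others 9.97 to 12.1). Mouse 14702-1, wild type without Cre, was the highest of its group in Kcnq3 at 208 CPM (others 123 to 138). Wild-type mouse 14701-9 accounts for 12 of these values and C201R mouse 14003-1 for 5, and the number of members called for genotype without both is given in the report.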

How the results depend on the processing

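The 8 members lower in C201R with Cre rest on few libraries and on the model. Their number was 8 with RLE scaling and 8 with no filter on low counts (7 shared), 12 with DESeq2 and 6 with the length trend removed, 3 without the series term, 4 with Xist as a covariate, 18 in series 2 alone, 19 without mice 14003-1 and 14701-9, and 0 each in series 1 alone, with library totals, with a term for the Gm26924 share and with a replicate block by mouse number prefix. Of all 14634 genes, 109 were lower without the series term and 155 with Xist. With the Gm26924 share 33 were lower and with the prefix block 15. Leaving out each library gave 0 to 11 lower members. Series 1 alone and the length trend were chosen after the data were seen. No alternative reversed any of the 7 lower members shown here, and none called a member higher. The mouse number prefixes are shared by some mice across groups, but the labels do not say what they mark. With the prefix block wild type had 16 members above and 16 below its background, and C201R 9 (15 without the block) and 15. Library totals gave 12 lower in C201R, 31 higher and 9 lower in wild type, and 36 higher and 16 lower over both genotypes, and turned Kcnab3 to 0.00 in C201R, Kcnc1 to 0.14 and Kcnc2 to 0.31 in wild type, and Kcnc2 to 0.28 over both. Leaving out each library gave 12 to 17 higher and 16 to 23 lower in C201R, 17 to 25 and 19 to 22 in wild type, and 20 to 24 and 24 to 27 over both. In the other settings the counts with Cre stayed within 1.5 times. Genotype without Cre and the interaction called 0 members in each setting run.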
